A study of Mus musculus with 18 samples.

Results

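The V genes of the T cell receptor alpha and beta chains were read out gene by gene in bulk RNA of sorted tumour-infiltrating cells. The members are all genes of the mm10 annotation (GENCODE mouse release 21) whose symbols begin with Trav or Trbv, pseudogenes left out. They number 130 of the 46983 annotated genes: 108 Trav genes on chromosome 14 and 22 Trbv genes on chromosome 6. A T cell builds each receptor chain by joining 1 V gene to shorter segments in its own DNA, and its daughters inherit the joined gene. An alpha chain joins Trav to Traj and the constant gene Trac, and a beta chain joins Trbv to Trbd, Trbj and the constant gene Trbc1 or Trbc2. The V gene supplies the first pair of antigen-contacting loops and the start of the third, CDR3, so the V genes found in a bulk RNA sample reflect which T cell clones were in it. Dendritic cells and macrophages do not rearrange these genes.

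The cells came from subcutaneous MC38 tumours, grown from a mouse colon carcinoma line in female C57BL/6 mice aged 6 weeks at injection. Treatment ran for 2 weeks from a mean tumour volume of 100 mm3. Both groups were given anti-PD-1, an antibody that binds an inhibitory receptor of T cells, at 200 µg per mouse 2 times a week, and 1 group also received D18, an agent known here by its code name, at 25 µg per mouse 1 time a week. Flow cytometry gave sorts of CD8+ T cells, of CD4+ T helper cells and of dendritic cells, with 3 libraries per sort and treatment, 18 in all, and no untreated tumours are among them. The 2 treatments are called anti-PD-1 and D18 below, and the dendritic cell sort is called the DC sort. Mice were pooled before being assigned to groups, and no source says that the replicates of a group are separate mice, so p-values measure only the spread between these samples. No source ties libraries of different sorts to the same mice either.

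The libraries were shallow, with 11170 to 266392 reads each, and the reads assigned to V genes were few. In all 939 V gene reads were found, 258 of Trav and 681 of Trbv genes, and 12 libraries held at least 20 of them (5 anti-PD-1, 7 D18). Several sorts did not match their labels cleanly. CD4 anti-PD-1 replicates 1 and 2 held 0 and 1 reads of Cd3e, which encodes a chain of the T cell receptor complex. CD4 anti-PD-1 replicate 3 held 15 Cd8a and 23 Cd8b1 reads beside 20 of Cd4, and CD4 D18 replicate 3 held 83 Cd8a reads against 2 of Cd4. All libraries numbered 3, the DC sort included, held reads of all 8 listed T cell markers as well as all 8 macrophage markers. So did CD8 anti-PD-1 replicates 1 and 2, CD8 D18 replicate 2 and CD4 D18 replicates 1 and 2, but no other DC library. Of the DC markers, 1 to 7 of 8 were seen per library. All 4 epithelial markers together reached at most 9 reads in a library. Anti-PD-1 replicates 1 and 2 of every sort, 6 libraries in all, held 0 reads of 3 mitochondrial genes (mt-Atp6, mt-Co2, mt-Co3), and the other 12 held some. Results are therefore also given without the libraries numbered 3, or within the libraries that hold those mitochondrial reads.

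The sequences of the V genes that the results turn on show how far neighbouring genes can be told apart. The last 60 bases of 8 Trbv transcripts are printed 5′ to 3′, from the annotation's mm10 transcripts, with capitals from the last TGTGC to the end. That stretch begins with the TGT codon of the conserved cysteine and is the germline start of CDR3. On the printed strand TGTGC occurs in the last 60 bases of 86.4% of the 22 Trbv and 82.4% of the 108 Trav transcripts. All 8 genes lie on the plus strand: Trbv17 at chr6:41163062-41163556, Trbv2 at chr6:41047340-41047995, Trbv19 at chr6:41178375-41179048, Trbv16 at chr6:41151740-41152230, Trbv13-1 at chr6:41116007-41116468, Trbv13-2 at chr6:41121396-41121832, Trbv12-1 at chr6:41113550-41114067 and Trbv12-2 at chr6:41118851-41119364.
Trbv17: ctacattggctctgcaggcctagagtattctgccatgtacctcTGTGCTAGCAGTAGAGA
Trbv2: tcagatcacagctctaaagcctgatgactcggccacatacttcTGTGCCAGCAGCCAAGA
Trbv19: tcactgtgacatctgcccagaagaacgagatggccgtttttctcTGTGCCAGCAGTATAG
Trbv16: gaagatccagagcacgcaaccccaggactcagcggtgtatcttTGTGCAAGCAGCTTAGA
Trbv13-1: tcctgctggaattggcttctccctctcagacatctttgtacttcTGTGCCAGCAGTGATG
Trbv13-2: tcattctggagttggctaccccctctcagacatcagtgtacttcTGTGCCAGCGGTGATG
Trbv12-1: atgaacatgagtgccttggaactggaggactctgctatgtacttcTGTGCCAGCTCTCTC
Trbv12-2: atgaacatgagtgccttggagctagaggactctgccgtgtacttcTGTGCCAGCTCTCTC

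Over their whole transcripts Trbv12-1 and Trbv12-2 were identical at 88.3% of aligned bases, and Trbv13-1 and Trbv13-2 at 88.1%. Of the 22 Trbv genes, 3 shared any run of 50 bases with another V gene. The Trav locus differs, because C57BL/6 mice carry copied blocks of it, whose genes are marked d and n in their symbols. Of the 108 Trav genes, 100 shared at least 1 run of 50 bases with another V gene, 66 shared at least 50% of such runs and 35 shared all of them. The Trav16 genes are an example, 97.4% to 98.5% identical in pairs, and their last 60 bases differ at 2 positions, shown in capitals. They lie on the plus strand at chr14:53743104-53743705 (Trav16), chr14:53351028-53351621 (Trav16n) and chr14:53047287-53047821 (Trav16d-dv11).
Trav16: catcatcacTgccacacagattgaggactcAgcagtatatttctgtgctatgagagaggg
Trav16n: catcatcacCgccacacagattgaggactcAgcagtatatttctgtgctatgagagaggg
Trav16d-dv11: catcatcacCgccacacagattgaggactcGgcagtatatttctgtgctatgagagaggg
The sources used here do not say how reads that fit several genes were assigned, so counts of single Trav genes are uncertain between copies, and family sums (all genes of the same number) are given for the copied genes described below. None of the 35 genes that share all their runs had a read in any library, so a count of 0 for such a gene does not show that its RNA was absent.

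Of the 130 V genes, 58 had at least 1 read in any library, 40 Trav and 18 Trbv, and 72 had none, 68 Trav and 4 Trbv. The 4 unseen Trbv genes were Trbv5, Trbv21, Trbv23 and Trbv30. Most of the genes seen had few reads: 16 had a single read over all 18 libraries, 24 had at most 3 and 21 had at least 10. The unmarked block of the Trav locus gave 148 reads over 25 of its 46 genes. The d block gave 45 reads over 8 of 34 genes, and the n block gave 65 reads over 7 of 28. The 5 Trbv genes with most reads overall were Trbv17 with 137, Trbv13-1 with 100, Trbv12-2 with 74, Trbv16 with 70 and Trbv13-2 with 63. The Trav gene with most reads was Trav9n-4 with 25, followed by Trav3-3 with 24. No V gene had reads in more than 9 of the 18 libraries, a number reached by Trbv13-1 and Trbv13-2. The 33 V pseudogenes, left out of all sums, held 4 reads.

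V reads in proportion to all reads of a library, given below as CPM (counts per 1000000 reads), were highest in the CD8 sort. With anti-PD-1 the 3 CD8 libraries held 678, 1376 and 223 CPM of V reads (53, 261 and 32 reads). With D18 they held 752, 1100 and 256 (42, 293 and 20 reads). The CD8 treatment groups overlapped throughout, and replicate 3 was the lowest of both. The mean was 759 ± 581 (SD, n = 3) with anti-PD-1 and 703 ± 424 (SD, n = 3) with D18. On the scale of log2(CPM + 10) the D18 libraries differed from the anti-PD-1 libraries by 0.01, with a two-sided exact permutation p of 1.0. The sign of that difference was not stable: it was -0.34 for Trbv genes alone and -0.09 without the libraries numbered 3.

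The CD4 sort gave 0, 13.9 and 244 CPM of V reads with anti-PD-1 (0, 2 and 29 reads), while the D18 libraries held 504, 674 and 262 (30, 21 and 36 reads). Every D18 library lay above every anti-PD-1 library, but the distance between the highest anti-PD-1 and the lowest D18 library was small. The log2 difference was 3.54 with an exact permutation p of 0.1, which is the smallest p that 3 against 3 libraries can give. The anti-PD-1 libraries with 0 and 2 V reads also held almost no Cd3e: Cd3e had 0, 1 and 45 reads in the anti-PD-1 libraries and 23, 10 and 41 in the D18 libraries. These Cd3e counts are not scaled to library size. Scaled to library size, the 8 listed T cell markers together held 19.8, 90.1 and 4607 CPM in the anti-PD-1 libraries. In the D18 libraries these markers held 5092, 4943 and 3161 CPM. Whether the treatment difference follows the T cell content of the libraries was not tested. Among the libraries with reads of those 3 mitochondrial genes, which leave 1 anti-PD-1 library, the log2 difference was 0.85. In bulk RNA fewer T cells and less receptor RNA per T cell cannot be told apart.

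The DC sort held V reads too. Its anti-PD-1 libraries had 0, 8.99 and 257 CPM of V reads (0, 2 and 44 reads) and its D18 libraries 36.7, 89.5 and 390 (7, 1 and 66 reads). Replicate 3 of each treatment stood far above the other 2, and the treatment groups overlapped, with a log2 difference of 1.73 (exact permutation p = 0.4). In D18 replicate 2, with 11170 reads, as few as 3 reads amount to 269 CPM, so the single V read of that library says little. Replicate 3 of the DC sort also held 34 Cd3e reads with anti-PD-1 and 69 with D18, whereas the other 4 DC libraries held 0.

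**Figure D1:**
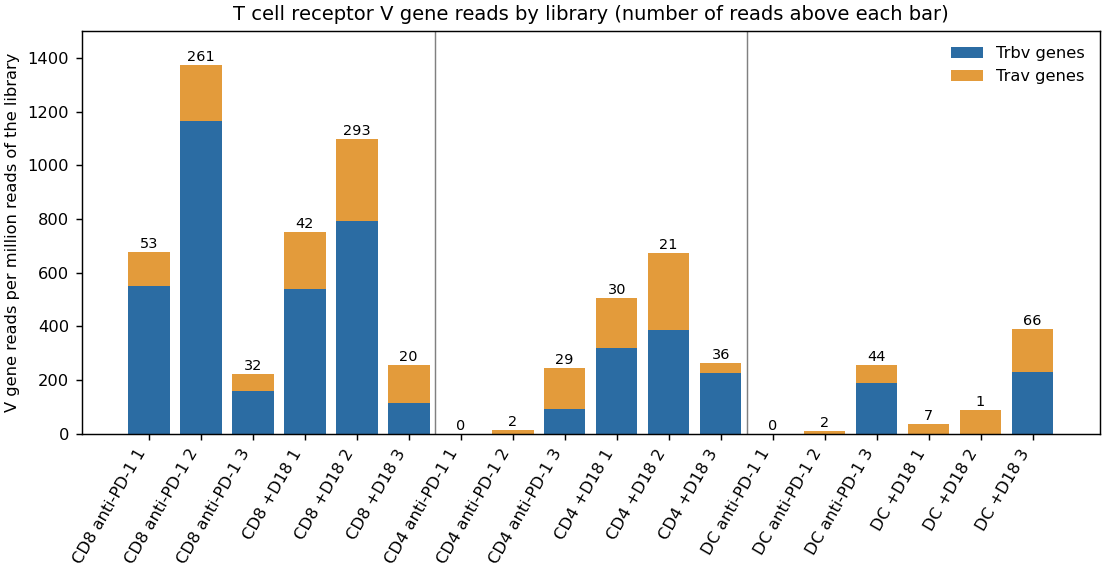
Bars show V gene reads in CPM of each of the 18 libraries (vertical axis), split into Trbv (blue) and Trav (orange), with the number of V reads above each bar. The 6 CD8 libraries lie between 223 and 1376, and 4 of the 6 DC libraries lie below 100.

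Across sorts the comparison rests on CPM of the unnormalised reads, because the authors normalised each sort in a table of its own. The CD8 sort exceeded the DC sort by 3.17 on the log2 scale, a 9.0-fold difference of CPM + 10, with a two-sided exact permutation p of 0.02 (sort labels permuted within treatment, n = 6 libraries each). Adjusted over the 3 pairs of sorts by the Benjamini-Hochberg method, that permutation p was 0.06 and did not pass 0.05. The CD8 and CD4 sorts differed by 2.18 (p = 0.065, adjusted 0.0975, exact permutation test), and the CD4 and DC sorts by 0.99 (p = 0.4 in the exact permutation test). Without the libraries numbered 3 the CD8 sort exceeded the DC sort by 4.95, and within the libraries that hold the 3 mitochondrial genes by 1.68, with exact permutation p-values of 0.0556 and 0.2. The former is the smallest p that these 2 against 2 libraries per treatment can give. The treatment difference was not shown to vary between sorts: permuting within sorts gave p = 0.135 for CD8 against CD4, 0.395 for CD8 against DC and 0.5 for CD4 against DC in two-sided exact permutation tests.

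The other genes of the receptor gave the scale for the V reads. Trac, Trbc1 and Trbc2 together had 150, 559 and 104 reads in the CD8 anti-PD-1 libraries and 144, 830 and 83 in the CD8 D18 libraries. For every 100 of these constant-gene reads there were 24.1 to 46.7 V reads in the CD8 libraries, and 14.1 to 36.2 in the 6 CD4 and DC libraries with at least 20 V reads. Trbv reads outnumbered Trav reads by 2.56 to 5.53 times in the CD8 anti-PD-1 libraries. In the CD8 D18 libraries the ratio was 2.50, 2.57 and 0.82, so the groups overlapped. Trbv and Trav transcripts have similar median lengths, 372 and 378 bases. However, 66 of the 108 Trav genes and 0 of the 22 Trbv genes shared at least 50% of their runs of 50 bases. The part of such sharing in the ratio was not tested. Among the 12 libraries with at least 20 V reads the ratio was lowest, at 0.61, in CD4 anti-PD-1 replicate 3, and highest, at 6.2, in CD4 D18 replicate 3. Of the other 6 libraries, 4 held 1 to 7 Trav reads and no Trbv read, and 2 held no V read. DC D18 replicate 1 went against the pattern, with 7 Trav reads spread over 6 genes, 5 Trac reads, and no read of any Trbv gene, Trbc1 or Cd3e. It also held 52 reads of immunoglobulin V genes, the most of any library.

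None of the pathway genes passed the limma test of D18 against anti-PD-1. Of the 1569 CD8 genes with a mean of at least 10 normalised reads, 0 were called at a Benjamini-Hochberg adjusted p under 0.05 (0.0%), while 130 had an unadjusted p under 0.05. Of the CD4 genes 0 of 966 were called (100 at an unadjusted p under 0.05) and in the DC sort 0 of 886 (61 at an unadjusted p under 0.05). Limma-voom called 0 in each sort. All 3 constant genes and all 4 CD3 chains were tested in the CD8 sort, and the largest of their log2 differences was 1.43 ± 0.58 (SE) for Trbc1, with a limma adjusted p of 0.599. The others lay between -0.20 and 0.42. The 3 constant genes of the CD4 sort lay at 2.66 to 3.56 and the 3 tested CD3 chains at 2.4 to 3.31, all higher with D18 and all at adjusted p of 0.453 or above in limma. In the DC sort Trac was at 0.78 and Cd3g at 0.27 on the log2 scale, with limma adjusted p of 0.883 and 0.965. The coreceptors Cd8a and Cd8b1 were at 0.14 and 0.46 in the CD8 sort (limma adjusted p 0.964 and 0.818), and Cd4 at 0.83 in the CD4 sort (limma adjusted p 0.876).

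The number of V genes seen in a library followed its number of V reads only loosely. The CD8 libraries showed 11, 19 and 16 V genes under anti-PD-1 against 14, 17 and 14 under D18. CD8 D18 replicate 2, with 293 V reads, showed 17 genes, and CD4 anti-PD-1 replicate 3 showed 19 with 29 reads. To compare libraries of unlike depth, the number of V genes to be expected in 20 V reads drawn without replacement from each library was computed. In the CD8 sort it was 7.10, 8.12 and 11.4 under anti-PD-1 against 10.8, 9.08 and 14.0 under D18. The groups overlapped, with means of 8.88 ± 2.26 and 11.3 ± 2.49 (SD, n = 3 each) and an exact permutation p of 0.3. For the CD4 sort the value was 14.2 in the single usable anti-PD-1 library and 8.10, 10.8 and 9.13 with D18. That comparison has 1 library on a side and was not tested. The anti-PD-1 library in it held 15 Cd8a reads beside 20 of Cd4, whereas Cd8a had 0, 0 and 83 reads in the D18 libraries. DC replicate 3 gave 11.8 with anti-PD-1 and 11.4 with D18.

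**Figure D2:**
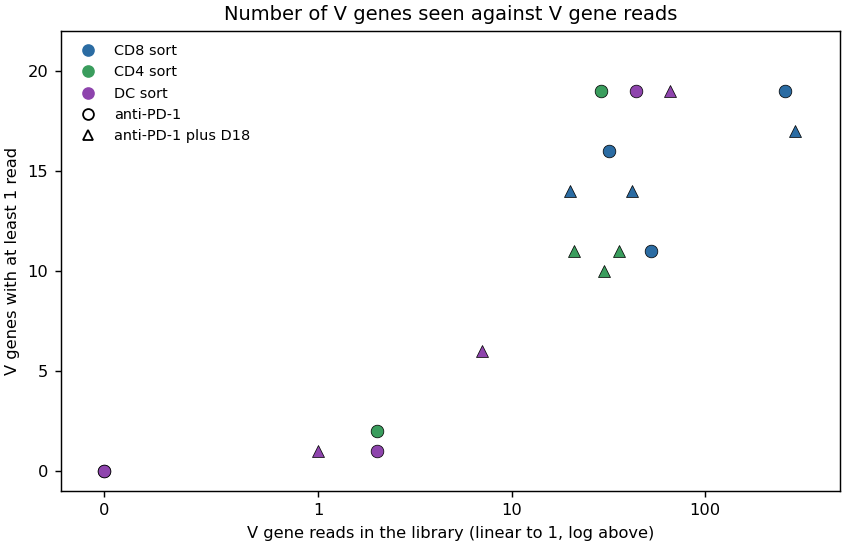
Each point is a library, placed by its V gene reads (horizontal axis, linear to 1 and logarithmic above) and by the number of V genes with at least 1 read (vertical axis), with colour for the sort and shape for the treatment. The 2 libraries with more than 200 V reads show 17 and 19 genes, while the libraries with 29, 44 and 66 reads show 19 each, and the 2 anti-PD-1 libraries without V reads overlie each other at 0.

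A single Trbv gene held a larger share of the Trbv reads in the CD8 anti-PD-1 libraries than in the CD8 D18 libraries. The top gene was Trbv13-1 in anti-PD-1 replicate 1, with 46.5% of 43 reads (95% Wilson interval 32.5% to 61.1%). It was Trbv17 in replicate 2, with 44.8% of 221 reads (38.4% to 51.4%), and Trbv17 again in replicate 3, with 52.2% of 23 reads (33.0% to 70.8%). With D18 it was Trbv19 in replicate 1, with 26.7% of 30 reads (14.2% to 44.4%), and Trbv13-1 in replicate 2, with 28.0% of 211 reads (22.3% to 34.4%). In D18 replicate 3 there were 9 Trbv reads, and 3 genes shared the top at 22.2%. The treatment groups did not overlap, and only replicate 2 was deep enough in both for intervals that stay apart.

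The mean share of the top Trbv gene in the CD8 sort was 47.8% ± 3.86 (SD, n = 3) with anti-PD-1 and 25.6% ± 3.01 (SD, n = 3) with D18. The difference of -22.2 percentage points had an exact permutation p of 0.1, the smallest possible for 3 against 3. When the genes of a family were summed, the difference was -15.7 points and the groups overlapped (exact permutation p = 0.3). With the replicate number as a block, the same difference had an exact sign-flip permutation p of 0.25, again the smallest possible. The effective number of Trbv genes (the inverse of the summed squared shares) was 3.06, 3.80 and 3.21 under anti-PD-1 against 6.62, 4.66 and 5.40 under D18. The top Trav gene held 50%, 27.5% and 22.2% of the Trav reads under anti-PD-1 against 33.3%, 20.7% and 18.2% under D18, on 9 to 82 Trav reads. The Trav groups overlapped (difference -9.16 points, exact permutation p = 0.5).

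The other sorts held too few Trbv reads to repeat that comparison. Among the CD4 libraries it was Trbv13-1 with 36.4% of 11 reads in anti-PD-1 replicate 3. With D18 it was Trbv16 with 68.4% of 19 reads in replicate 1, Trbv15 and Trbv19 with 25.0% each of 12 reads in replicate 2, and Trbv16 with 22.6% of 31 reads in replicate 3. In replicate 3 of the DC sort it was Trbv17 with 37.5% of 32 reads with anti-PD-1 and Trbv19 with 33.3% of 39 reads with D18.

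**Figure D3:**
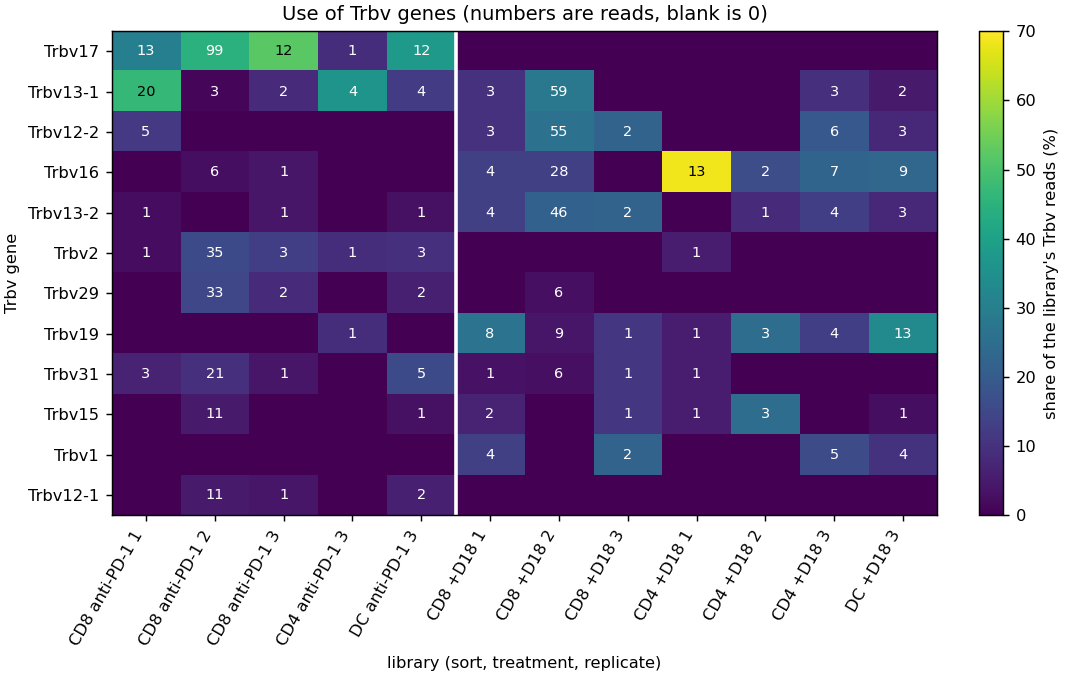
Rows are the 12 Trbv genes with at least 10 reads, columns the 12 libraries with at least 20 V reads (anti-PD-1 left of the white line, D18 right of it), colour the share of the library's Trbv reads and numbers the reads. Trbv17 has reads in all 5 anti-PD-1 columns and in none of the 7 D18 columns.

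Trbv17 was the V gene whose use differed most plainly between the treatments. It had 13, 99 and 12 reads in the CD8 anti-PD-1 libraries and 0 in all 3 CD8 D18 libraries. It had 1 read in CD4 anti-PD-1 replicate 3, 12 reads in DC anti-PD-1 replicate 3, and 0 in each of the 9 D18 libraries. Replicates 1 and 2 of the CD4 and DC sorts with anti-PD-1, and of the DC sort with D18, held no Trbv read at all. In the CD4 D18 libraries a count of 0 allows shares of up to 15.8%, 25.0% and 9.68%, above the 9.09% of CD4 anti-PD-1 replicate 3. The share of Trbv17 among the Trbv reads was 30.2%, 44.8% and 52.2% in the CD8 anti-PD-1 libraries. In the CD8 D18 libraries a count of 0 allows shares of up to 10.0%, 1.42% and 33.3%, so replicate 2 carries most of the weight of its absence there. Summed over the CD8 sort, 124 of 287 Trbv reads (43.2%) were of Trbv17 with anti-PD-1 and 0 of 250 with D18, which allows up to 1.2%.

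With reads pooled within each treatment, and against that floor of 3 reads over the CD8 D18 group, Trbv17 was 40.2-fold lower in CPM with D18. This bound allows for counting error in the count of 0 only, and not for the spread between libraries. The bound was 15-fold without anti-PD-1 replicate 2, which holds most of the Trbv17 reads, 13.4-fold without D18 replicate 2, the deepest D18 library, and 44.9-fold without the libraries numbered 3. Trbv17 was the only V gene with a mean of at least 10 normalised reads in any sort, and so the only one in the limma test of all expressed genes. Its mean passed that filter through the CD8 anti-PD-1 libraries alone, since all 3 CD8 D18 libraries held 0 reads of it. Without anti-PD-1 replicate 2 the mean fell below the filter. Trbv17 thus entered the test because of the group in which it was high. Its log2 difference in the CD8 sort was -4.55 ± 2.15 (SE), with a limma adjusted p of 0.617, and it was not called. With the replicate number as a block, which pairs the CD8 libraries, the limma adjusted p was 0.128, and 20 of the 1569 genes were called (1.27%), none of them a V gene. Without the filter on low reads Trbv17 was called with a limma adjusted p of 9.7e-05, as 1 of 22 among 14497 genes (0.152%). Its log2 difference was again -4.55 and its SE fell from 2.15 to 0.82, so that call rests on the smaller SE of the unfiltered fit. Called without that filter were 29 of 14441 genes in the CD4 sort (0.201%) and 0 of 17841 in the DC sort, none of them a V gene. Without the libraries numbered 3, limma called 0 of 1551 genes in the CD8 sort, 35 of 976 in the CD4 sort (3.59%) and 1 of 848 in the DC sort (0.118%), again none of them a V gene. With the set of mitochondrial reads as a term in the model, the log2 difference of Trbv17 was -3.65 and its limma adjusted p 0.912. Over all alternatives that kept the filter its limma adjusted p ran from 0.128 to 0.994. Summed macrophage markers also differed between these libraries, with groups that overlapped, at 20621 to 33297 CPM in the anti-PD-1 libraries and at 1308, 2763 and 21579 in the D18 libraries. Their part in the V gene counts was not tested.

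In the CD8 sort 6 of the 40 V genes with a read had treatment groups that did not overlap in normalised reads (15%), against 8.5% of all 14497 genes with a read. With 6 genes this is a small number, and 5 of the 6 had reads of 3 or fewer in some library of their higher group. Lower with D18 were Trbv17, Trbv2 and Trav16. Trbv2 had 1, 35 and 3 reads under anti-PD-1 and 0 in all 3 D18 libraries. Against the pooled floor of 3 reads Trbv2 was 12.6-fold lower in CPM, or 2.41-fold without anti-PD-1 replicate 2 and 4.23-fold without D18 replicate 2. Trav16 had 2, 11 and 1 reads under anti-PD-1 and none with D18.

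Higher with D18 were Trbv19, Trbv13-2 and Trav9n-4. Trbv19 had 0 reads in all 3 anti-PD-1 libraries and 8, 9 and 1 with D18, at least 6.17-fold higher in CPM. That bound fell to 3.32-fold without anti-PD-1 replicate 2, 4.02-fold without anti-PD-1 replicate 3 and 3.98-fold without D18 replicate 1. Its share of Trbv reads was uneven among the D18 libraries, at 26.7%, 4.27% and 11.1%. Trbv13-2 had 1, 0 and 1 reads in the anti-PD-1 libraries against 4, 46 and 2 in the D18 libraries, or 2.33%, 0% and 4.35% against 13.3%, 21.8% and 22.2% of Trbv reads. Trav9n-4 had 0 reads in the anti-PD-1 libraries against 1, 15 and 2 in the D18 libraries. None of these 5 genes reached the mean of 10 normalised reads needed for the limma test. Without that filter their limma adjusted p ran from 0.557 (Trbv2) to 0.663 (Trav16 and Trav9n-4).

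**Figure D4:**
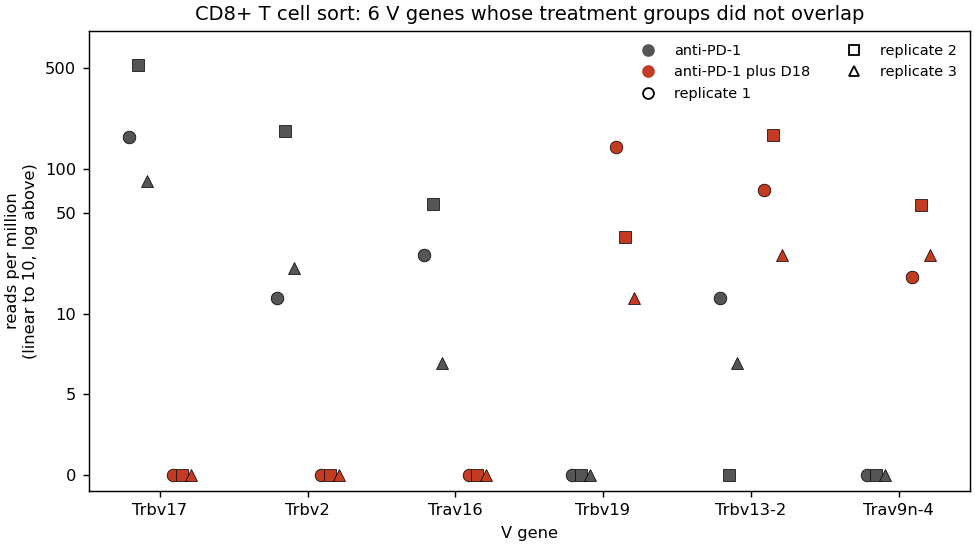
CPM (vertical axis, linear to 10 and logarithmic above) of the 6 V genes named on the horizontal axis are shown in each CD8 library, with grey for anti-PD-1, red for D18 and shape for the replicate number. Trbv17, Trbv2 and Trav16 lie at 0 in all 3 D18 libraries, and Trbv19 and Trav9n-4 lie at 0 in all 3 anti-PD-1 libraries.

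Summed over copies, the Trav16 genes no longer separated the treatments. The Trav16 family had 3, 18 and 1 CD8 reads under anti-PD-1 against 4, 17 and 3 under D18. Among its copies, Trav16d-dv11 had 0 reads in the 3 anti-PD-1 libraries and 0, 17 and 2 with D18, while Trav16n had 1, 7 and 0 against 4, 0 and 1. The Trav9 family kept groups that do not overlap, with 0 reads in each anti-PD-1 library and 4, 34 and 2 with D18. Its reads with D18 lay in Trav9n-4, in Trav9-2 (3, 13 and 0) and in Trav9-4 (0, 6 and 0). Trav9n-4 and Trav9d-4 are identical over all 565 aligned bases, but their transcripts are 595 and 565 bases long, so that figure leaves out unaligned bases. Of their runs of 50 bases, 89.0% and 90.7% occur in another V gene. Reads of Trav9n-4 are therefore only partly told apart from those of its copies.

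Reads of several other abundant V genes lay mostly in 1 CD8 library of a treatment. Read numbers follow the depth of a library, and shares could be more even. Trbv31 held 6.98%, 9.50% and 4.35% of the Trbv reads under anti-PD-1 against 3.33%, 2.84% and 11.1% under D18. Trbv16 held 13.3% in each of D18 replicates 1 and 2. In the CD8 libraries Trbv13-1 had 20, 3 and 2 reads under anti-PD-1 against 3, 59 and 0 under D18. Trbv12-2 had 5, 0 and 0 against 3, 55 and 2, whereas its neighbour Trbv12-1 had 0, 11 and 1 against 0 in all 3. Trbv29 had 0, 33 and 2 reads against 0, 6 and 0, and Trbv31, which lies on the minus strand beyond the constant genes, had 3, 21 and 1 against 1, 6 and 1. Replicate 2 of each treatment, the deepest CD8 libraries, held most of the reads of these genes, except for Trbv13-1 and Trbv12-2 with anti-PD-1, whose reads lay mostly or all in replicate 1. Trbv16 had 0, 6 and 1 reads under anti-PD-1 against 4, 28 and 0 under D18. Trbv15 had 0, 11 and 0 against 2, 0 and 1. Trbv1 had 15 reads in all, every one in a D18 library: 4, 0 and 2 in the CD8 sort, 5 in CD4 replicate 3 and 4 in DC replicate 3.

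Among the Trav genes, Trav3-3 had 16 of its 24 reads in CD8 D18 replicate 2, and Trav7-6 had 9 of its 13 in CD8 anti-PD-1 replicate 2. Summed over their families, Trav3 had 16 of 25 and Trav7 had 10 of 30 reads in those libraries. Trav13-1 led the CD8 anti-PD-1 libraries 1 and 3 with 5 and 2 reads and had 0 in the CD8 D18 libraries, but the Trav13 family overlapped between treatments, with 5, 0 and 2 against 0, 4 and 0. Trav14n-3 had 1, 0 and 0 reads in the CD8 anti-PD-1 and 3, 0 and 0 in the CD8 D18 libraries, and 5, 0 and 2 in the CD4 D18 libraries. The Trav14 family had 1, 0 and 0, then 3, 0 and 1, and 7, 2 and 2 in the same libraries. Trav4-4-dv10 led CD4 D18 replicate 2 with 4 of 9 Trav reads, which were all the Trav4 reads there. Trav7d-3 led CD4 anti-PD-1 replicate 3 with 5 of 18, and the Trav7 family had 7 there. Of the CD8 Trav genes seen, 6 were seen under both treatments, 37.5% of the 16 seen with each. Of the CD8 Trbv genes, 9 were seen under both, 75.0% of the 12 seen with anti-PD-1 and 81.8% of the 11 seen with D18.

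Of the 35 V genes with a read in the CD4 sort, 2 had groups that did not overlap (5.71%, against 7.13% of all genes with a read), a share near the background. They were Trbv16, with 0 reads in each anti-PD-1 library and 13, 2 and 7 with D18, and Trbv19, with 0, 0 and 1 against 1, 3 and 4. Both comparisons include anti-PD-1 libraries with 0 and 2 V reads. In the DC sort this held for 0 of 39 V genes, against 8.08% of all genes with a read. Over all sorts, Trbv19 had reads in 7 of 7 D18 libraries with at least 20 V reads and in 1 of 5 anti-PD-1 libraries, where it had 1 read.

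V genes that mark T cells with invariant alpha chains had 1 read in all. Trav1, used by mucosal-associated invariant T cells, shares no run of 50 bases with another V gene, and its read lay in CD4 anti-PD-1 replicate 2. Trav11 and Trav11d, used by invariant natural killer T cells, are listed with 0 reads in all 18 libraries, but they are among the genes that share all such runs, so reads of them may not have been counted and nothing follows about these cells. Trbv13-2, Trbv29 and Trbv1, which pair with that alpha chain in natural killer T cells and also serve conventional T cells, had the reads given above. Genes of the gamma-delta receptor were few outside the CD8 sort. The gamma constant genes had 8, 129 and 7 reads in the CD8 anti-PD-1 libraries, 0, 45 and 2 in the CD8 D18 libraries, 0 to 2 in the CD4 libraries, and 21 and 4 in DC replicate 3. The delta constant gene Trdc had 0 reads in every library. The joining genes were seen rarely: Traj genes had 0 to 11 reads and Trbj and Trbd genes together 0 to 12 reads in a library. Rag1, a recombinase gene of developing lymphocytes, had 0 reads throughout, Rag2 had 1 read in each of 2 CD4 libraries, and Dntt, which adds bases at the joints, had at most 3 reads in a library. None of the 3 recombination genes was abundant enough for the limma test.

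Libraries of the same treatment resembled each other in V gene use even when they came from different sorts. Overlap was measured for each pair of the 12 libraries with at least 20 V reads as the sum over V genes of the smaller of the 2 shares, taken within Trav and Trbv and then averaged. The 31 pairs of the same treatment had a median overlap of 35.5% (12.4% to 64.3%), and the 35 pairs of different treatment 13.7% (2.26% to 36.8%). These ranges overlap, and a library enters many pairs, so the pairs are not independent and no test was made. For each of the 12 libraries, the library with the highest overlap had the same treatment. That held for 12 of 12 with Trbv genes alone and with families summed, for 10 of 12 with Trav genes alone, for 6 of 6 without the libraries numbered 3, for 6 of 6 in the CD8 sort alone, and for 10 of 10 among the libraries with reads of the 3 mitochondrial genes.

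By median overlap, the sort named in the labels separated the libraries less. Pairs of the same treatment and different sort had a median overlap of 34.2% (22 pairs), and pairs of the same sort and different treatment 15.2% (13 pairs). The highest overlap of all was 64.3%, between CD8 D18 replicate 1 and DC D18 replicate 3. Next came the CD8 anti-PD-1 libraries 3 and 2 with DC anti-PD-1 replicate 3, at 56.3% and 56.0%, and CD8 D18 replicate 1 with CD4 D18 replicate 3, at 54.4%. Both DC libraries and CD4 D18 replicate 3 in these pairs held Cd8a reads, 71 and 87 in the DC libraries and 83 in the CD4 library. CD4 D18 replicates 1 and 2, which held 0 Cd8a reads and 16 and 10 Cd4 reads, overlapped with the 3 CD8 D18 libraries by 12.4% to 28.9%. Those values lie within the 2.26% to 36.8% of pairs of different treatment. Since the replicates of a treatment are not stated to be separate mice, mice in common and treatment cannot be told apart as the origin of shared V genes.

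**Figure D5:**
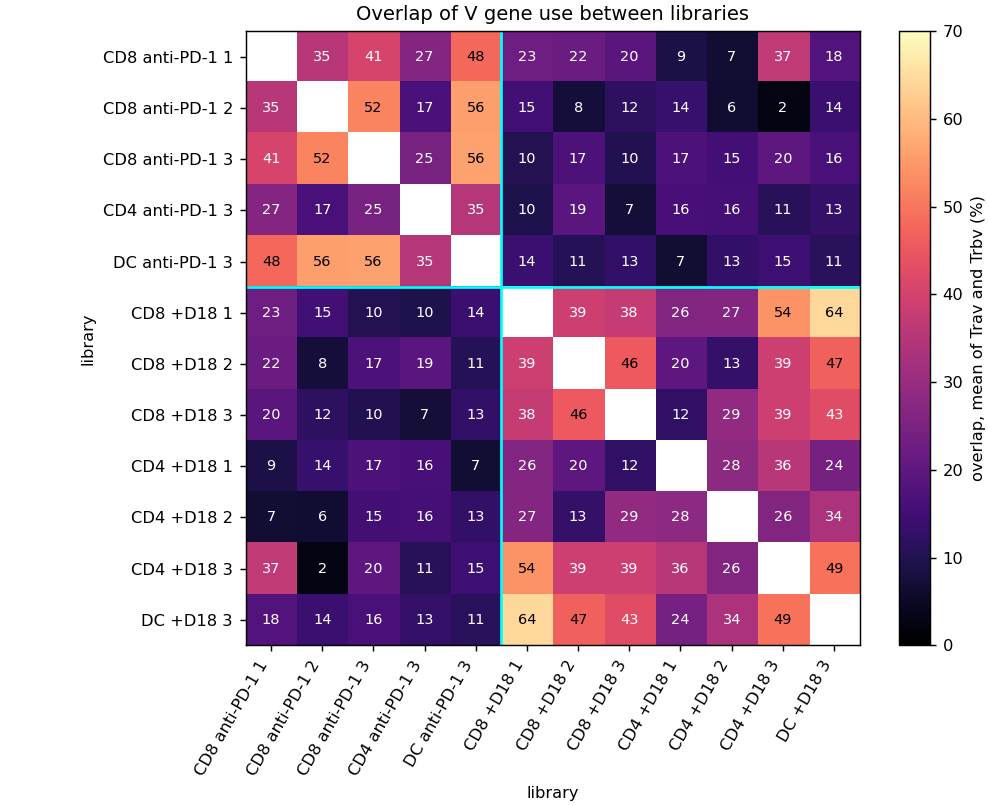
Each cell gives the overlap of V gene use (%, mean of Trav and Trbv) between 2 of the 12 libraries with at least 20 V reads, ordered by treatment, with cyan lines between anti-PD-1 and D18. The 2 blocks of equal treatment on the diagonal hold the high values, up to 64.3%, and no cell outside them exceeds 36.8%.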

How the data were processed

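Bulk RNA was sequenced from 18 libraries made with the Smart-Seq2 protocol, per the labels' protocols. Per the submitters' processing notes, STAR 2.4.0, HTSeq 0.6.1 and DESeq2 were used with the mm10 build, and the version of DESeq2 and the treatment of multi-mapped reads are not given in the sources used here. The authors deposited 1 table per sort with 1 log2 value per gene and library, scaled by a size factor of the library and then variance-stabilised, as the values themselves show. From the values, reads were recovered by inverting that transform, and 100% of values came out whole within 0.001. The planned tests were run on these recovered reads.

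Gene symbols, places and transcripts came from GENCODE mouse release 21 (the same build), with symbols for 46488 of 46983 IDs (98.9%). V reads, shares and overlaps were computed from recovered reads, without resampling. Reads carry no molecular identifiers, so the Wilson 95% intervals and the limit of 3 reads that a count of 0 allows cover counting error only. Between treatments, limma 3.58.1 in R 4.3.3 (trend and robust settings) was fitted per sort on log2(normalised reads + 1) over genes with a mean of at least 10, with Benjamini-Hochberg adjustment at 0.05. Single values were compared with two-sided exact permutation tests, those of V reads in CPM (reads per 1000000) on log2(value + 10). The scripts were tested on simulated data with known changes. Other tools were pandas 2.3.3, numpy 2.4.6, biopython 1.88, scipy 1.17.1 and matplotlib 3.10.9 under Python 3.11.15.

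Groups follow the labels' sort and treatment, and no library was left out. Replicate numbers pair the CD8 libraries by the correlation of same-numbered deviations from group means (0.36, 0.51 and 0.56), which comes from the data and not from the labels. The members, lists and tests were chosen with earlier results of these data known. The rule for named genes takes V genes that pass the limma filter, the 2 V genes with most reads of each locus in each library, Trav1, Trav11, Trav11d, Trbv13-2 and Trbv29, and the V gene with reads in most libraries. Genes that the rule names only through ties at 1 or 2 reads are not all listed. Genes of groups that do not overlap, and those other genes given by their reads, were added after their values were seen. Alternatives were quantile normalisation, limma-voom, the deposited log2 values, other filters and pseudocounts, other denominators, pseudogenes included, families summed, a replicate block and each library left out. Omission of the libraries numbered 3 and the set of mitochondrial reads were added after seeing the data.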

Additional observations from a re-analysis of the deposited data

How the results depend on the processing

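Over 16 results and 227 alternatives, 197 kept their direction and their side of the threshold or stayed within the spread. For the permutation tests of 3 against 3 libraries the smallest p is 0.1. Those results could not cross 0.05 under any setting, so for them only the sign was at stake. V reads in CPM in the CD8 sort (0.01 on the log2 scale) changed sign under many settings: -0.0754 with non-mitochondrial reads as the denominator, -0.0899 with size-factor normalised reads, -0.00347 with pseudogenes included, -0.34 with Trbv genes only, -0.00812 with a pseudocount of 100 and -0.0857 without both libraries numbered 3. Leaving out 1 library at a time gave -0.68 to 0.60. Among libraries with mt-Co2, mt-Co3 or mt-Atp6 reads the log2 difference was 1.38 in the CD8, 0.85 in the CD4 and -1.12 in the DC sort, with 1 anti-PD-1 library each and no test. The CD8 against DC difference (3.17) passed 0.05 only before adjustment (exact permutation p = 0.02, adjusted 0.06). It did not pass unadjusted with the replicate block (3.17, exact permutation p = 0.125), without the libraries numbered 3 (4.95, p = 0.0556 by exact permutation, the smallest that design can give) and among libraries with those mitochondrial reads (1.68, exact permutation p = 0.2). The CD8 against CD4 difference ran from 1.43 to 2.65 with 1 library left out, and passed an unadjusted 0.05 in 2 cases: without CD4 D18 replicate 1 (2.57, exact permutation p = 0.045) and without CD4 D18 replicate 2 (2.65, exact permutation p = 0.035). The cause was not tested.

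The count of genes called by limma in the CD8 sort was 0 in the fit reported, 1 on the deposited log2 values, 22 without the filter, 20 with the replicate block and 0 to 3 with 1 library left out (3 without D18 replicate 3). In the CD4 sort it was 29 without the filter, 35 without both libraries numbered 3 and 0 to 20 with 1 library left out (20 without anti-PD-1 replicate 3). In the DC sort it was 1 with quantile normalisation, 1 without both libraries numbered 3 and 0 with any 1 library left out. The replicate block called 0 genes in the CD4 and DC sorts, whose same-numbered libraries did not deviate together (correlations of -0.14, 0.15 and -0.20, and 0.03, -0.09 and 0.14), and apart from the count in the CD8 sort and the unadjusted CD8 against DC difference it changed no call. The share of the top Trbv gene in the CD8 sort differed by -23.7 to -20.0 points with 1 library left out. A minimum of 50 V reads leaves anti-PD-1 replicates 1 and 2 against D18 replicate 2 alone, and there the difference was -17.7 points. In the CD4 sort, with families summed, the number of V genes at equal reads differed by -2.48 instead of -4.90, and the share of the top Trav gene by 10.5 instead of 15.5 points. Trbv17 could not be tested without CD8 anti-PD-1 replicate 2, since its mean then fell below the filter. Neither the minimum of 50 V reads, which no CD4 library reaches, nor the replicate block, with 1 anti-PD-1 library, gave a value for the CD4 shares. Depth limits every count of V genes: with 9 to 43 Trbv reads in 4 of the 6 CD8 libraries, a count of 0 there allows shares of 6.98% to 33.3%.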
